A study of Mus musculus with 8 samples.

Results

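Double-high cells were melanoma cells that carried the RNA of the hypoxia response and the RNA of late G2 and mitosis at the same time. They were found by pooling the 8 tumours and keeping barcodes with 200 to 5000 genes, at most 7.5% mitochondrial UMIs, at least 4000 UMIs and at least 0.3% of UMIs from *Mlana*, *Pmel*, *Dct*, *Tyr* and *Tyrp1* together. A hypoxia score H was the mean of ln(1 + count per 10000) over *Car9*, *Bnip3*, *Ndrg1*, *Egln1* and *Hilpda*, and a G2/M score G was the same mean over *Ube2c*, *Cenpf*, *Prc1*, *Top2a* and *Plk1*. Of 41925 barcodes in all, 22783 passed as melanoma cells, and 635 of these (2.79%) lay in the top 20% of both scores. They were compared with 3922 other G2/M cells (G in its top 20%, H not), with 3922 other hypoxic cells (H in its top 20%, G not) and with 14304 cells in neither. They were thus chosen by the RNA levels of the 10 score genes in the same cells. Oxygen was not measured, so "hypoxic" and "G2/M" stand for RNA scores here, and all 4 markers that name the population (*Car9*, *Bnip3*, *Cenpf* and *Top2a*) belong to the scores that chose it.

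The data were 10x 3′ single-cell RNA counts of large tumours that grew from B16F10, a mouse melanoma line derived from C57BL/6 mice, in 4 hosts of genotype *Atf4* WT/WT and 4 of genotype *Atf4* Δ/Δ, all labelled as 12 weeks old. *Atf4* encodes a transcription factor of the integrated stress response. The Δ/Δ hosts were *Atf4* fl/fl mice in which tamoxifen had activated a ubiquitous Rosa26::CreERT2, and the WT/WT controls carried the same CreERT2 and received tamoxifen too. The injected melanoma cells kept *Atf4* in both hosts, so genotype was a property of the surrounding mouse and not of the cells described. Each tumour was 1 library, with 37283598 to 74942137 UMIs in 4231 to 8696 barcodes.

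The labels were checked on barcodes low in pigment genes. In those with at least 3 UMIs of immune, fibroblast or endothelial markers, the planned set, *Atf4* was at 352, 606, 377 and 460 CPM (counts scaled to a library of 1000000) in *Atf4* WT/WT replicates 1 to 4 and at 272, 221, 560 and 206 CPM in *Atf4* Δ/Δ replicates 1 to 4, and the genotypes overlapped. A stricter set, chosen after these values had been seen, held at least 10 UMIs of markers that were low in the melanoma sums. There *Atf4* was at 264, 253, 271 and 251 CPM in the same WT/WT and at 97.6, 87.7, 91.8 and 50.9 CPM in the same Δ/Δ tumours, and the genotypes did not overlap. The sex labels did not hold as well. *Xist*, which female cells express, was at 486 and 434 CPM in this stricter set of WT/WT replicates 1 and 3, labelled male, and at 0 in WT/WT replicates 2 and 4, labelled female, whereas the 4 Δ/Δ libraries matched their labels. Pairs of libraries shared 2 to 14 cell barcodes over the 28 pairs, and 7 double-high barcodes also occurred in another library.

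When oxygen is short, the prolyl hydroxylases that mark HIF-α subunits for destruction slow down, and HIF binds the hypoxia response element, with the core ACGTG, in front of genes for glucose uptake, glycolysis, pH control and vessel growth. Late in the cell cycle a separate programme switches on the cyclins, kinases, motor proteins and topoisomerase that condense and divide the chromosomes. Many of its genes carry a cell cycle genes homology region, TTTGAA or a close variant, at which the DREAM and MuvB complexes act. In tumours, HIF activity and cell division are often found in different zones.

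The promoters of the score genes differed in which of the 2 motifs they held. Sequences came from RefSeq on GRCm38.p6, and each window covered 250 bases before and 50 after a transcription start. ACGTG on either strand was present for 4 of the 4 hypoxia genes that had an entry (5 were sought) and for 1 of 5 G2/M genes, *Plk1*, whereas TTTGAA on either strand was present for 5 of 5 G2/M genes and 0 of 4 hypoxia genes. Across all 27025 genes, counted in the same way by any of their promoters, 21.8% held ACGTG and 20.2% held TTTGAA (19.6% and 17.9% of 32851 promoters), and neither 5- nor 6-letter match overlapped the other. The stretches that hold the match nearest to a start, out of those that lie wholly before it, are printed 5′ to 3′ on the coding strand, with the match in capitals. There, CACGT and TTCAAA are the same motifs read on the other strand, and in *Bnip3* a match on each strand overlaps to give CACGTG.
Car9 (carbonic anhydrase 9, chr4:43506966-43507025, plus strand): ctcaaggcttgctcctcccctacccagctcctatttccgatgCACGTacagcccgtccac
Bnip3 (mitophagy receptor, chr7:138909581-138909640, minus strand): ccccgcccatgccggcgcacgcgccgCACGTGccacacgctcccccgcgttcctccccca
Egln1 (HIF prolyl hydroxylase 2, chr8:124949290-124949349, minus strand): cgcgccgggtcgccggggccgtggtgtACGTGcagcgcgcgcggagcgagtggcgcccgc
Hilpda (lipid droplet protein, chr6:29272556-29272615, plus strand): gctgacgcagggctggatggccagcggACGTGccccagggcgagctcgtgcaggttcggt
Ube2c (ubiquitin-conjugating enzyme of the anaphase-promoting complex, chr2:164769869-164769928, plus strand): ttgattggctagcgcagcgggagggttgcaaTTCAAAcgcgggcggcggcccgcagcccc
Prc1 (midzone microtubule bundler, chr7:80294416-80294475, plus strand): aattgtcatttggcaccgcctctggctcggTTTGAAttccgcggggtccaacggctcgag
Top2a (topoisomerase II alpha, chr11:99024190-99024249, minus strand): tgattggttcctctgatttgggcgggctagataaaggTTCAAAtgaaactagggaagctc
The match lay 18 bases before the start in *Car9*, 107 in *Bnip3*, 68 in *Egln1*, 43 in *Hilpda*, 29 in *Ube2c*, 30 in *Prc1* and 23 in *Top2a*, and in *Cenpf* and *Plk1* the TTTGAA match lay after the start and is not printed. *Prc1* has another annotated start, from which the same letters begin 5 bases before it and run across it. A match is a description of the letters, and binding was not measured.

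Cells high in both scores were fewer than the scores' separate frequencies would give. In the pooled cells 911 would be expected if H and G were independent, against 635 observed, a ratio of 0.697. The ratio was 0.647, 0.724, 0.620 and 0.823 in *Atf4* WT/WT replicates 1 to 4 and 0.678, 0.659, 0.689 and 0.712 in *Atf4* Δ/Δ replicates 1 to 4. It lay below 1 in 8 of 8 tumours. Put the other way round, 13.9% of G2/M-high cells were in the top 20% of H, against 21.5% of the remaining cells. Thinning each cell to 4000 UMIs gave a pooled ratio of 0.651.

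**Figure D1:**
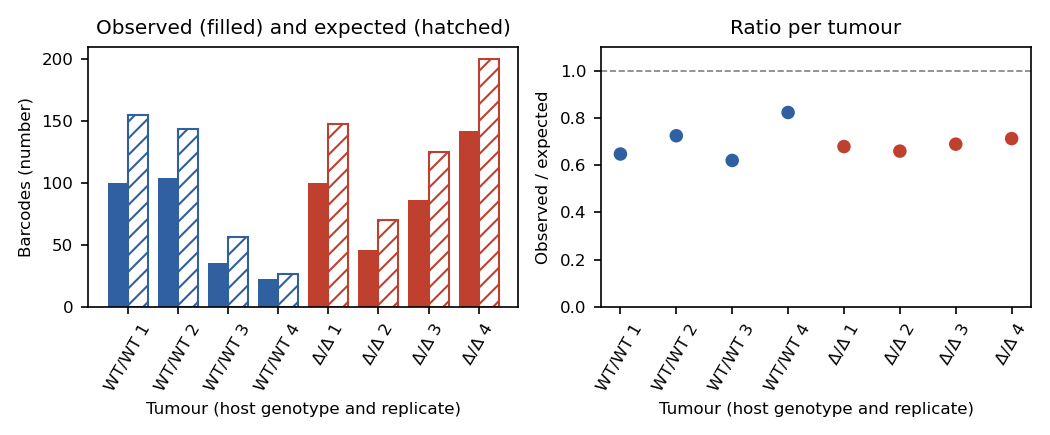
Number of double-high barcodes per tumour (left, filled bars) beside the number expected from the separate frequencies of high H and high G in that tumour (hatched bars), and their ratio (right, 1 point a tumour, dashed line at 1), with *Atf4* WT/WT hosts in blue and Δ/Δ hosts in red. The observed number lay below the expected one in each of the 8 tumours, with ratios of 0.620 to 0.823.

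The ratio did not fall evenly along the scores. With both scores cut into 5 equal parts, the most depleted cell of the grid was the top part of H with the part next to the top of G, at 493 barcodes and a ratio of 0.541, lower than the 0.697 of the double-high corner itself. Cells in the top part of H were in excess in the lowest part of G, at 1181 barcodes and a ratio of 1.30. In the part next to it they were at 1367 barcodes and a ratio of 1.50. In other hypoxic cells the median G was 0 in WT/WT replicates 3 and 4 and in Δ/Δ replicates 1 to 3. Cells tied at 0 could fall in either of these low parts, so the parts are not ranked. Cells in the lowest part of H reached their highest ratio, 1.32, in the part of G next to the top.

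**Figure D2:**
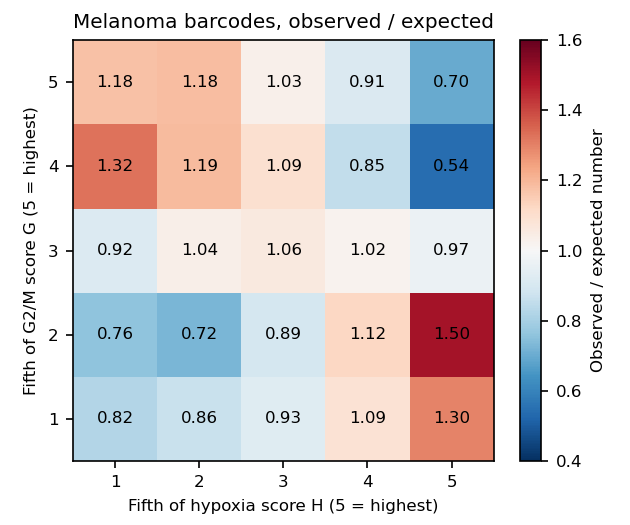
Observed over expected number of melanoma barcodes in a grid of the hypoxia score (x axis) and the G2/M score (y axis), each cut into 5 parts of equal size over the 22783 pooled cells, with blue below 1 and red above 1. The double-high cells are the top right square at 0.70, and the square below it, at 0.54, is the lowest of the 25.

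The share of melanoma cells that were double-high differed widely between tumours and was not resolved by host genotype. It was 2.13%, 3.98%, 1.72% and 0.902% in *Atf4* WT/WT replicates 1 to 4 (100, 104, 35 and 22 cells), with a mean of 2.18% ± 1.30 (SD, n = 4). It was 4.22%, 1.68%, 2.68% and 5.32% in *Atf4* Δ/Δ replicates 1 to 4 (100, 46, 86 and 142 cells), with a mean of 3.47% ± 1.61 (SD, n = 4). The ranges overlapped, and the difference of 1.29 percentage points gave p = 0.257 in an exact two-sided permutation test (adjusted p = 0.514 over this share and the ratio). It was 0.512 points at cuts of 10%, 2.05 at cuts of 30% and −0.366 with cuts set within each tumour, and p stayed above 0.05 in the exact permutation test of each. The ratio of observed to expected was 0.703 ± 0.0911 in WT/WT and 0.685 ± 0.0221 in Δ/Δ hosts (SD, n = 4 each), with p = 0.771 in the same exact permutation test (adjusted p = 0.771). The smallest p that 4 tumours against 4 allow is 0.0286. The spread in the share came with the share of hypoxic cells, which ran from 5.94% in WT/WT replicate 4 to 34.9% in Δ/Δ replicate 4, while G2/M-high cells made up 17.1% to 22.5% of every tumour. Within hosts that *Xist* marked as male the means were 2.44% (2 WT/WT) and 3.23% (3 Δ/Δ), and within female hosts 1.92% (2 WT/WT) and 4.22% (1 Δ/Δ).

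The values that chose the cells are given as a description, without a test. The median H of double-high cells was 1.39, close to the 1.41 of other hypoxic cells and far from the 0.278 of other G2/M cells, and the cut was at 1.09. Their median G was 1.52, against 1.49 in other G2/M cells and 0.0765 in other hypoxic cells, with the cut at 0.951. Of the 635 cells, 127 lay within 0.1 above the H cut and 66 within 0.1 above the G cut, and 129 and 69 cells that were high in the other score lay within 0.1 below these cuts. All 5 hypoxia genes had a UMI in 380 of the cells and all 5 G2/M genes in 412, and at least 4 of the 5 in 97.6% and 97.2%.

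Summed per tumour, the 5 hypoxia genes stood near or slightly below their level in other hypoxic cells. *Car9*, which encodes a membrane enzyme that exports acid equivalents, ran from 411 over a median of 438 to 490 CPM across the 8 tumours in double-high cells, and from 464 over 504 to 565 CPM in other hypoxic cells. *Egln1*, an oxygen sensor that HIF itself induces, ran from 306 over 434 to 576 CPM and from 343 over 483 to 545 CPM in the same groups. The ranges overlapped for each of the 5 genes, but within a tumour the double-high sum was the higher one in 0 of 8 tumours for *Car9* and *Bnip3*, in 1 for *Ndrg1* and *Hilpda* and in 2 for *Egln1*. Of the G2/M genes, *Ube2c* ran from 423 over 583 to 651 CPM in double-high cells and from 513 over 565 to 611 CPM in other G2/M cells. *Plk1*, the mitotic kinase that matures centrosomes and drives mitotic entry, stood apart. It ran from 88.6 over 105 to 116 CPM in double-high cells and from 131 over 138 to 157 CPM in other G2/M cells, and the ranges did not overlap.

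Double-high cells held nearly as many UMIs as other G2/M cells and more than other hypoxic cells. Their median was 11602.5 to 14632.5 UMIs per cell over the 8 tumours, against 12244.5 to 16430 in other G2/M cells and 7923 to 10160 in other hypoxic cells. Within a tumour their median was 0.869 to 1.03 times that of other G2/M cells. A pair of cells in 1 droplet, 1 from each of the other groups, would hold 1.61 to 1.87 times as many UMIs as the double-high cells did. No doublet caller was run, and the part of mixed droplets in these cells was not tested. Markers of other cells were low. Of 12 immune markers 9 had a UMI, their summed level had a median of 19.1 CPM over the tumours (4.73 to 86.7, highest in WT/WT replicate 4), *Cd68* was the most abundant, and *Ptprc*, *Cd3e* and *Nkg7* were at 0 of 8780908 UMIs, which allows up to 0.342 CPM each. The 9 fibroblast markers summed to a median of 491 CPM (251 to 674), of which *Sparc*, a matrix protein gene that melanoma cells also express, gave 3683 of 4101 UMIs. The 7 endothelial markers summed to a median of 26.3 CPM (13.1 to 51.3), with *Egfl7* at 210 of 229 UMIs and *Cdh5*, *Emcn* and *Kdr* at 0, and 3 of the 5 erythroid markers were at 0.

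Gene by gene comparisons used the UMIs of all cells of a class summed per tumour (8 tumours, 4 classes, 32 sums), with the tumour as a block in edgeR's quasi-likelihood test, Benjamini-Hochberg adjustment and an adjusted p under 0.05. The classes were cut on the RNA of the same cells, so the p-values speak for how alike the 8 tumours were and not for an independent choice of cells. Genes that follow H (HIF targets) against other G2/M cells, and genes that follow G (mitosis genes) against other hypoxic cells, had to differ, and these are described without a test. Other genes that follow the cell cycle, those of S phase among them, are no independent result against other hypoxic cells. Where both classes passed the same cut, genes that follow that score were held close by it.

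Against other G2/M cells, 43.2% of all 10964 genes tested were called, 20.8% higher and 22.4% lower in double-high cells, with a median log2 difference of −0.01 over all genes. HIF targets were raised as the choice of cells fixes. *Slc2a1*, the glucose transporter GLUT1, ran from 164 over 192 to 203 CPM in double-high cells and from 27.4 over 38.7 to 51.1 CPM in other G2/M cells. *Vegfa*, the vessel growth factor, ran from 138 over 160 to 209 CPM and from 21.6 over 31.0 to 39.2 CPM. In both genes every double-high sum lay above every sum of other G2/M cells. Among 22 HIF targets in glucose use the median difference was 1.14 on the log2 scale, from −0.35 (*Pfkfb4*) to 2.30 (*Gys1*, glycogen synthase), and 21 were positive. Among 27 other HIF targets it was 1.78, and 27 were positive. Among genes with a mean of at least 50 CPM in one of the classes, the largest rises outside the rule were those of *Espn*, an actin-bundling protein gene, at 3.64 ± 0.11 (SE), *Selenbp1*, a selenium-binding protein gene, at 3.26 ± 0.11, *Ankrd37* at 2.95 ± 0.14, *Ero1l*, the oxidase that drives disulfide formation, at 2.85 ± 0.06, *Adm*, which encodes adrenomedullin, at 2.61 ± 0.13, *Mxi1*, a MYC antagonist, at 2.44 ± 0.07, and *Kbtbd11* at 2.40 ± 0.13, with *Vegfa* at 2.42 ± 0.07.

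Late G2 and mitosis genes centred near their level in other G2/M cells. Both classes passed the same G cut, with a median G of 1.52 and 1.49, so this closeness was largely set by the choice of cells. Of 40 outside the rule, 5 rose, 9 fell and 26 did not pass the test, beside the 20.8% higher and 22.4% lower over all genes, so that neither count stood above the background. Their median was −0.03, which was positive at cuts of 10% and without the barcodes of highest UMI count. *Anln*, which encodes anillin of the contractile ring, ran from 145 over 174 to 222 CPM in double-high cells and from 97.6 over 111 to 133 CPM in other G2/M cells, a rise of 0.66 ± 0.07. *Bub1*, a kinase of the spindle checkpoint, ran from 108 over 133 to 160 CPM and from 75.4 over 89.4 to 97.0 CPM, a rise of 0.60 ± 0.08. Neither gene overlapped between the classes. *Ect2*, which activates RhoA for cleavage, rose by 0.39 ± 0.08 and *Nek2*, a centrosome kinase, by 0.30 ± 0.09. *Pif1*, a helicase, ran from 5.91 over 7.68 to 12.4 CPM in double-high cells and from 11.1 over 14.5 to 15.9 CPM in other G2/M cells, and fell by 0.79 ± 0.18 with overlapping ranges. *Kif2c*, a microtubule depolymerase of the centromere, fell by 0.36 ± 0.10 and *Cdc20*, the activator of the anaphase-promoting complex, by 0.23 ± 0.08. *Ccnb1*, cyclin B1, was at a median of 211 against 231 CPM (−0.11 ± 0.07, adjusted p = 0.24) and *Cdk1*, its kinase, at −0.08 ± 0.05 (adjusted p = 0.26, edgeR), neither past the threshold.

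Genes of S phase were lower. Of 30, 21 fell and 1 rose, beside 22.4% lower and 20.8% higher over all genes, and their median difference was −0.34 beside −0.01. *Ccne1*, cyclin E1, ran from 14.7 over 19.1 to 27.4 CPM in double-high cells and from 28.2 over 31.4 to 37.9 CPM in other G2/M cells, and fell by 0.83 ± 0.11 without overlap. *Tyms*, thymidylate synthase, ran from 83.0 over 103 to 126 CPM and from 158 over 176 to 201 CPM, again without overlap. *Cdt1*, a licensing factor, rose by 0.28 ± 0.11. Of 18 genes of homologous recombination and mismatch repair 5 fell and 2 rose, among them *Rad54l* (−0.44 ± 0.16), *Msh6* (0.36 ± 0.12) and *Blm* (0.32 ± 0.09), with a median of −0.13. The counts of these 18 genes did not stand clear of the 22.4% lower and 20.8% higher over all genes.

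The CDK inhibitor genes *Cdkn1a* and *Cdkn1b* were higher than in other G2/M cells. *Cdkn1a*, which encodes p21, ran from 236 over 276 to 362 CPM in double-high cells, from 66.5 over 77.4 to 116 CPM in other G2/M cells and from 267 over 323 to 440 CPM in other hypoxic cells. It was higher than in other G2/M cells in 8 of 8 tumours without overlap, by 1.87 ± 0.10. *Cdkn1b*, which encodes p27, ran from 91.8 over 141 to 160 CPM and from 50.6 over 54.9 to 61.6 CPM in double-high and other G2/M cells, a rise of 1.34 ± 0.07. Of 19 genes of CDK inhibitors and p53 targets tested, 11 rose and 2 fell (*Cdkn2c*, −0.25 ± 0.08, and *Bax*, −0.14 ± 0.04), beside 20.8% higher and 22.4% lower over all genes, with a median of 0.55. *Gadd45g*, a stress-response gene, rose by 1.61 ± 0.19. The list holds genes that HIF and stress kinases also induce, and p53 activity was not measured.

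**Figure D3:**
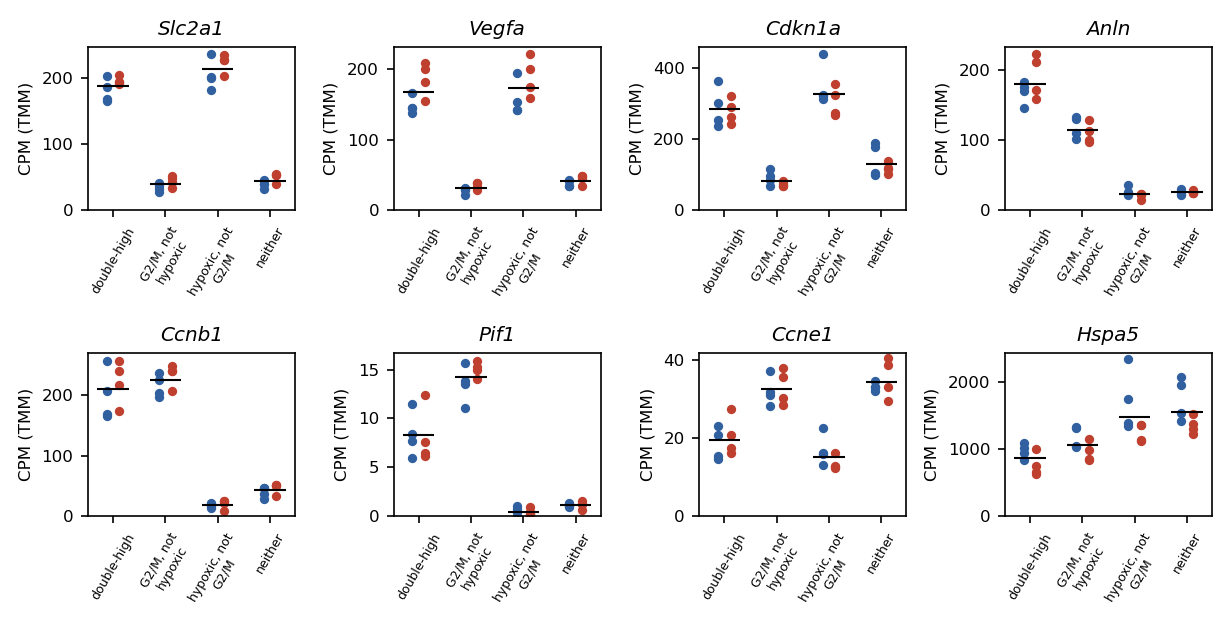
CPM (TMM-scaled) of 8 genes in double-high cells, other G2/M cells, other hypoxic cells and cells in neither class, 1 point a tumour with *Atf4* WT/WT hosts in blue and Δ/Δ hosts in red, and the mean of the 8 tumours as a bar. *Slc2a1*, *Vegfa* and *Cdkn1a* stood with the hypoxic cells, *Ccnb1* with the G2/M cells, *Anln* above both and *Hspa5* below the other hypoxic cells.

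Among the other lists, ATF4 targets that passed the test mostly rose, and ER chaperone, respiratory chain and pigment cell genes that passed mostly fell. Of 25 ATF4 targets 13 rose and 3 fell against other G2/M cells (median 0.27), led by *Vldlr*, a lipoprotein receptor, at 1.64 ± 0.20 and *Atf3* at 1.52 ± 0.18, while *Phgdh*, the first enzyme of serine synthesis, was at −0.38 ± 0.06. *Psph*, the last enzyme of that path, was at −0.27 ± 0.11. Of 18 ER chaperone and folding genes 12 fell and 3 rose (median −0.28), with *Calr*, calreticulin, from 509 over 585 to 748 CPM against 843 over 917 to 980 CPM, a fall of 0.57 ± 0.05 without overlap. *Hsp90b1* rose by 0.36 ± 0.04. Of 27 nuclear genes of the respiratory chain 19 fell and 1 rose (median −0.11), with *Atp5g1* at −0.66 ± 0.04 and *Sdhb* at −0.54 ± 0.03. Of 16 pigment cell genes outside the rule 11 fell and 2 rose (median −0.36), with *Gpr143* at −0.98 ± 0.13, *Trpm1* at −0.96 ± 0.08 and *Cited1*, a CBP/p300 co-factor, at 1.20 ± 0.08. Of 25 interferon-response genes 4 fell and 1 rose, both below the shares of 22.4% lower and 20.8% higher over all genes. The one that rose was *H2-K1*, an MHC class I gene, from 36.2 over 45.4 to 82.3 CPM in other G2/M cells to 110 over 133 to 195 CPM (1.53 ± 0.10). Among the largest falls at 50 CPM or more in one of the classes were *Mgll* (−1.06 ± 0.14), *Elovl1* (−1.04 ± 0.09) and *Acat2* (−1.04 ± 0.10), which act in lipid metabolism, *Srm* (−0.99 ± 0.08), spermidine synthase, *Gart* (−0.99 ± 0.09) of purine synthesis, and *Dkc1* (−0.97 ± 0.08), which modifies ribosomal RNA. *Lactb* and *Gpatch4* were at −1.03 ± 0.09 and −0.98 ± 0.07. Among markers of other cells, *Cd68* was at 0.69 ± 0.23, *Sparc* at 0.37 ± 0.05 and *Egfl7* at −0.32 ± 0.11. The other markers tested did not pass.

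Against other hypoxic cells, 33.6% of 10964 genes were called, 15.1% higher and 18.6% lower, with a median of −0.04 over all genes. Here mitosis genes had to be higher, and 39 of 40 were positive with a median of 3.07 on the log2 scale. The exception was *Pttg1*, securin, at −0.12 ± 0.09. *Nusap1*, a spindle protein gene, differed by 4.58 ± 0.12, *Aurka*, Aurora kinase A, by 3.96 ± 0.12, *Aspm*, a spindle pole protein gene, by 3.89 ± 0.11 and *Cdc25b*, a phosphatase that activates CDK1, by 3.58 ± 0.10. *Kif23*, *Kif11*, *Sgo2a* and *Hmmr* differed by 3.62 to 3.84. Of 30 S phase genes 26 rose and 1 fell, *Ung*, with a median of 1.04, and of 18 genes of homologous recombination and mismatch repair 14 rose and none fell, with a median of 1.37.

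Some HIF targets were lower than in other hypoxic cells, and most did not pass the test. Of 22 in glucose use 10 fell and none rose, beside 18.6% lower and 15.1% higher over all genes, and their median was −0.17. *Pfkp*, phosphofructokinase, ran from 291 over 343 to 373 CPM in double-high cells and from 400 over 414 to 455 CPM in other hypoxic cells, and fell by 0.28 ± 0.04 without overlap. *Aldoc*, an aldolase, fell by 0.88 ± 0.09 and *Eno2*, an enolase, by 0.84 ± 0.19. Of 27 other HIF targets 9 fell and 2 rose (*Zfp395*, 0.47 ± 0.16, and *Bhlhe40*, a repressor, 0.21 ± 0.07), with a median of −0.09 beside −0.04 over all genes. *Ero1l* ran from 875 over 1117 to 1141 CPM and from 1287 over 1533 to 2117 CPM, a fall of 0.55 ± 0.05 without overlap, and *Pgf*, placental growth factor, fell by 0.78 ± 0.10. *Vegfa* was at −0.05 ± 0.06 (adjusted p = 0.60) and *Slc2a1* at −0.20 ± 0.06. The H scores of the 2 classes were close but not equal, and the 5 rule genes lay at −0.35 to −0.08 in the same contrast.

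ER chaperones were lower here as well. Of 18, 17 fell and none rose, beside 18.6% lower and 15.1% higher over all genes, with a median of −0.38 beside −0.04. *Hspa5*, which encodes the chaperone BiP, ran from 630 over 885 to 1095 CPM in double-high cells and from 1118 over 1364 to 2348 CPM in other hypoxic cells, and fell by 0.73 ± 0.07 without overlap. *Dnajb9*, its co-chaperone, ran from 19.1 over 34.4 to 48.8 CPM and from 52.1 to 94.2 CPM. It too did not overlap. Of 25 ATF4 targets 10 fell and 3 rose (median −0.20), the rises no more frequent than over all genes, and *Fgf21*, a stress hormone gene, was at a median of 0.640 CPM (0 to 1.93) against 4.79 CPM (2.15 to 14.3). *Atf5* was at −0.88 ± 0.14, and *Psat1* and *Shmt2*, of serine and one-carbon metabolism, at 0.37 ± 0.07 and 0.30 ± 0.07. Of the 19 CDK inhibitors and p53 targets 9 fell and 3 rose (median −0.21), the rises again near the 15.1% over all genes. *Cdkn1a* did not pass the test (−0.14 ± 0.09, adjusted p = 0.28), *Cdkn1b* rose by 0.41 ± 0.06, *Cdkn2c* and *Cdkn2d*, inhibitors of CDK4 and CDK6, rose by 1.74 ± 0.11 and 1.64 ± 0.08, and *Gadd45a* fell by 1.35 ± 0.18.

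At 50 CPM or more in one of the classes, the largest falls against other hypoxic cells outside the lists were those of *Hist1h2bc*, a histone gene (−1.12 ± 0.15), *Mxd4*, a MYC antagonist (−1.06 ± 0.09), *Vamp5* (−0.98 ± 0.07), *Fkbp11* (−0.98 ± 0.08), *Nppb* (−0.97 ± 0.12), *Ccnd2*, cyclin D2 (−0.94 ± 0.04), and *Ctsl*, cathepsin L (−0.91 ± 0.07). *Ccnd2* ran from 261 over 311 to 406 CPM in double-high cells and from 536 over 628 to 787 CPM in other hypoxic cells. Of 16 pigment cell genes 11 fell and 2 rose. Of 27 respiratory chain genes 13 fell and 1 rose (*Ndufa5*, which was negative at a cut of 10%). Of 25 interferon-response genes 7 fell and 2 rose. These counts stand beside 18.6% lower and 15.1% higher over all genes. Among markers of other cells, *Cd68* was at −0.83 ± 0.20, *Dcn* at −1.72 ± 0.55 and *Sparc* at −0.45 ± 0.05, and the other markers tested did not pass.

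**Figure D4:**
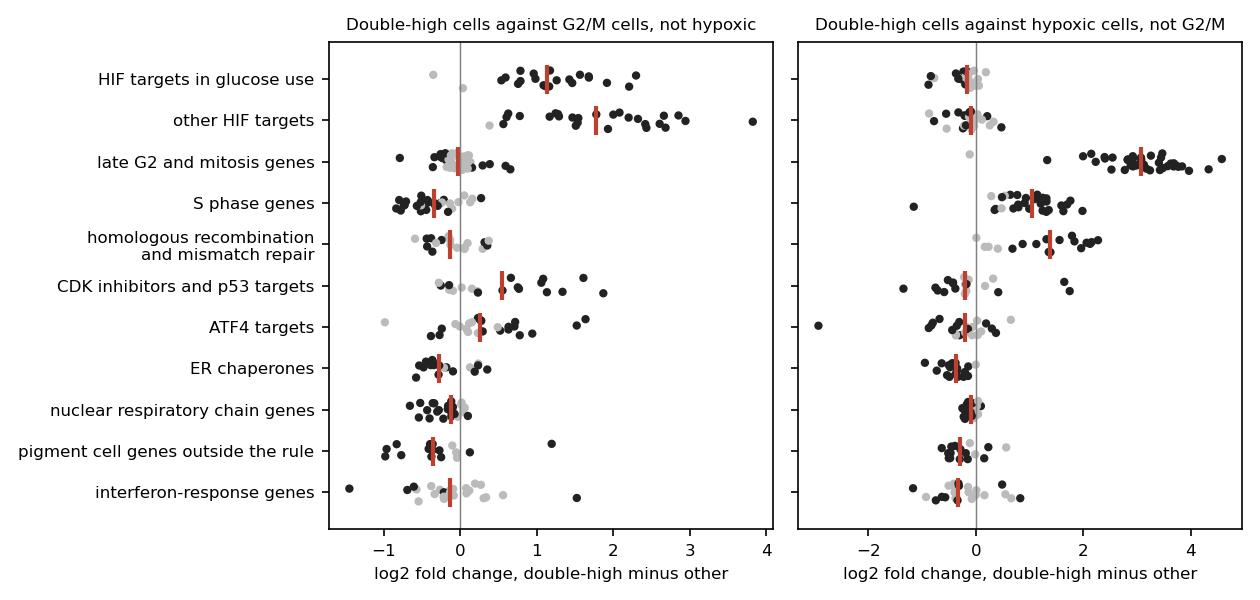
Log2 fold change of each tested member of 11 gene lists in double-high cells against other G2/M cells (left) and against other hypoxic cells (right), 1 point a gene, black where the adjusted p was under 0.05, grey where not, with the list's median as a red line. Mitosis genes centred on −0.03 at the left and HIF targets in glucose use on −0.17 at the right, while ER chaperones lay below 0 in both, at −0.28 and −0.38.

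The interaction term asked whether the difference between hypoxic and other cells was the same inside G2/M as outside it. It was called for 6.06% of 10964 genes, 388 (3.54%) with a positive and 276 (2.52%) with a negative term, with a median of −0.02. A positive term means a log2 difference, hypoxic minus other, that was higher inside G2/M than outside, whatever its sign or size. With a tumour left out the positive calls were 352 to 421, while the negative ones were 52 without WT/WT replicate 2, 62 without Δ/Δ replicate 1, 67 without Δ/Δ replicate 3, 75 to 111 without Δ/Δ replicate 4 or WT/WT replicate 1, 3 or 4, and 271 without Δ/Δ replicate 2. The split of 58.4% positive calls was 77.7% with RLE size factors and 75.7% with DESeq2. For HIF targets in glucose use none of 22 was called by edgeR (0 at an adjusted p under 0.05, and at most 4 in any of 16 alternatives), and their median was −0.03, which changed sign with other scalings. Of 27 other HIF targets 5 were called, all positive. *Ddit4*, an inhibitor of mTORC1, had a hypoxia difference of 2.08 ± 0.10 inside G2/M, larger by 0.46 ± 0.11 than outside, and for *Vegfa* it was larger by 0.35 ± 0.08. *P4ha2*, *Mxi1* and *Rora* were the others. *Cdkn1a* was larger by 0.51 ± 0.12, *Cdkn1b* by 0.28 ± 0.08 and *Ddit3*, which encodes CHOP, by 0.50 ± 0.14. The rule lets H vary below its cut, where the median H was 0.278 in other G2/M cells and 0.325 in neither class. Of the 5 rule hypoxia genes 1 was itself called with a positive term, and their median was 0.05. The positive terms of genes that follow H are therefore a description of these classes. *Calr* was the ER chaperone called, at −0.22 ± 0.06, with a larger fall inside G2/M than outside, and its call was lost under several alternatives.

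Most genes of the mitosis and S phase lists had a positive interaction term. Of 40 mitosis genes 38 were positive and called, and of 30 S phase genes 23, beside 3.54% of all genes. The rule holds G high in both G2/M classes but lets it vary below the cut, and there the median G was 0.0765 in hypoxic and 0.175 in other cells, so that these values are a description of the cells below the cut. Median *Ccnb1* was 20.9 CPM in other hypoxic cells and 46.3 CPM in cells of neither class. The largest positive terms at 50 CPM or more were those of *Cdt1* (1.35 ± 0.13), *Hmmr* (1.29 ± 0.13), *Cdkn3* (1.27 ± 0.14), *Uhrf1* (1.24 ± 0.11) and *Ccna2*, cyclin A2 (1.20 ± 0.10). *Fbxo5*, *Cenpa* and *Tacc3* followed at 1.14 to 1.20. At the negative end were *Mcrip2* (−0.65 ± 0.12), *Nop2* (−0.45 ± 0.11), *Gpatch4* (−0.44 ± 0.09) and *Ftsj3* (−0.42 ± 0.07), of which *Nop2* and *Ftsj3* act in ribosome assembly. *Rwdd4a*, *AI413582* and *Coa5* were at −0.41 to −0.37. The call of *Nop2* was lost without Δ/Δ replicate 1, 3 or 4 and after thinning, and apart from *AI413582* the negative terms named here were not called at cuts of 10%. *Nop2* was at a median of 30.1 CPM in double-high cells, 49.0 in other G2/M cells, 51.1 in other hypoxic cells and 57.4 in neither.

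Few genes were called between host genotypes within double-high cells. Of 8471 genes tested between the 4 Δ/Δ and 4 WT/WT sums, 6 were called (0.0708%), 2 higher (0.0236%) and 4 lower (0.0472%) in Δ/Δ hosts, and 644 had an unadjusted p under 0.05. *Isg15*, an interferon-induced ubiquitin-like protein gene, was at 53.9, 39.3, 69.5 and 38.3 CPM in WT/WT replicates 1 to 4 and at 11.4, 29.0, 25.5 and 9.31 CPM in Δ/Δ replicates 1 to 4. The genotypes did not overlap (−1.58 ± 0.26, adjusted p = 0.0138, edgeR). In other G2/M cells of the same tumours *Isg15* overlapped between the genotypes, but the difference between the classes did not pass the test (−1.11 ± 0.26, adjusted p = 0.0881). *Pde10a*, a cyclic nucleotide phosphodiesterase gene, was at 185, 111, 86.9 and 103 CPM and at 75.5, 64.5, 77.3 and 70.4 CPM in the same order (−0.85 ± 0.16, adjusted p = 0.0252). *Hist1h4d*, a histone H4 gene, was lower by 1.16 ± 0.24 and *Gm42418*, which overlaps a ribosomal RNA repeat, by 0.75 ± 0.15. *Ftl1-ps1*, a ferritin pseudogene, was higher by 0.59 ± 0.12. These 3 genes have near-identical copies or repeats in the genome, so their reads are uncertain. With host sex by *Xist* as a term *Isg15* kept its call, while *Pde10a*, *Hist1h4d*, *Gm42418* and *Ftl1-ps1* kept their direction and lost theirs. Each of the latter also lost its call with some single tumours left out, among them Δ/Δ replicates 1 and 4. *Isg15* lost its call without Δ/Δ replicate 4 and at cuts of 30%. *Atf4* of the melanoma cells was at 291, 442, 332 and 268 CPM in WT/WT and 403, 384, 508 and 397 CPM in Δ/Δ tumours, with overlap (0.30 ± 0.12, adjusted p = 0.527). The genotypes cannot be told apart from cages or litters, on which the labels give nothing.

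The genotype term of the difference between double-high and other G2/M cells was called for 8 of 10357 genes (0.0772%), 2 positive (0.0193%) and 6 negative (0.0579%), with 456 at an unadjusted p under 0.05, and 5 of the 8 were fibroblast matrix genes. *Col1a2*, a collagen I chain, was at 49.5, 0.701, 1.93 and 19.1 CPM in double-high cells of WT/WT replicates 1 to 4 and at 7.63, 1.61, 0 and 11.9 CPM in those of Δ/Δ replicates 1 to 4. In other G2/M cells it was at 1.31, 1.42, 1.92 and 9.24 CPM in WT/WT and at 27.2, 34.5, 0.114 and 31.1 CPM in Δ/Δ tumours, so that both classes entered the term. Barcodes with at least 5 UMIs of *Col1a1*, *Col1a2* and *Col3a1* together numbered 1, 0, 0 and 1 in double-high and 1, 0, 0 and 1 in other G2/M cells of WT/WT replicates 1 to 4, and 0, 0, 0 and 1 in double-high and 3, 2, 0 and 4 in other G2/M cells of Δ/Δ replicates 1 to 4. Without such barcodes in any class 2 genes were called, *Jun* and *Calr*, and without WT/WT replicate 1 it was 1. *Jun*, an AP-1 subunit, had a difference between double-high and other G2/M cells that was larger by 0.50 ± 0.09 in Δ/Δ hosts, with 359, 377, 447 and 441 CPM against 208, 192, 198 and 236 CPM there and 223, 463, 357 and 337 CPM against 169, 306, 282 and 277 CPM in WT/WT hosts. *Atf3* was larger by 0.88 ± 0.18 (adjusted p = 0.0255, edgeR) and the fall of *Calr* was deeper there, with a term of −0.39 ± 0.08. None of these 3 was called without Δ/Δ replicate 3, at cuts of 30% or with DESeq2. Without WT/WT replicate 1 *Jun* and *Calr* lost their calls, *Calr* also without WT/WT replicate 2 or Δ/Δ replicate 1, and *Atf3* lost its call with any tumour but WT/WT replicate 1 or Δ/Δ replicate 2 left out. *Atf4* did not pass (0.29 ± 0.11, adjusted p = 0.982).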

How the data were processed

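The authors made the deposited counts with Cell Ranger 3.1.0 on GRCm38 from 10x 3′ libraries, as whole UMI counts per gene and barcode, filtered to cells and not normalized. The labels name the V3 kit and Seurat 3.2.1. The paper's methods name an earlier version of the kit and, for the initial processing, an earlier Cell Ranger. The labels were followed here. Doublet removal is not stated in the sources used here. The members, gene lists and comparisons were chosen with earlier results of these data known, so the comparisons are no independent evidence for patterns seen before.

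Scores and classes were computed per barcode as given at the start of the report. UMIs were summed per tumour and class and tested with edgeR 4.0.16 (filterByExpr, TMM, quasi-likelihood, tumour as a block, adjusted p under 0.05) in R 4.3.3. The 15 genes of the rule and mitochondrial genes stayed out of the counts. Genotype was tested within double-high cells without a block, and shares by exact permutation of 70 assignments (scipy 1.17.1). DESeq2 1.42.0 was an alternative. The code was tested on simulated data. Named genes were the 8 with the largest change in each direction among those called, alike in 8 of 8 tumours and at 50 CPM or more, plus the largest of each list. *Pfkfb4*, *Pttg1*, *Ccnb1*, *Cdk1* and other list members outside this rule were named after their values were seen. Some genes that the rule names are not reported here. The double-high sums of replicate pairs differed by 1.47 to 2.61 times counting noise (chi-square per gene), so no pair was taken as 1 library. Limits on counts of 0 cover counting error only. The SE of a log2 difference was its absolute value divided by the square root of edgeR's F statistic. It thus includes the spread between tumours that the fit left. The labels call the tumours biological replicates.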

Additional observations from a re-analysis of the deposited data

Results flagged for a closer look

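Of 58 groups of 4 tumours examined for a sample far from the others, 2 were marked, and chance marks about 1 in 20. *Atf4* in double-high cells was at 508 CPM in *Atf4* Δ/Δ replicate 3, with a gap to the nearest tumour of 0.840 of the range of the 4 Δ/Δ tumours. *Lox*, which cross-links collagen, was at 21.4 CPM in WT/WT replicate 1 against 0 to 0.701 CPM in the other WT/WT tumours, a gap of 0.967 of the range.

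For 8 genes the difference between double-high and other G2/M cells itself differed between host genotypes by edgeR's test. It was lower in *Atf4* Δ/Δ hosts, with a log2 term of −5.06 for *Col1a2* (adjusted p = 1.7e-07), −3.85 for *Col1a1*, −3.49 for *Col3a1*, −4.73 for *Lox*, −4.08 for *Postn* and −0.39 for *Calr*, and higher by 0.50 for *Jun* and 0.88 for *Atf3*. WT/WT replicate 1 was the highest double-high sum for *Col1a1*, *Col1a2*, *Col3a1*, *Lox* and *Postn*. Without barcodes with at least 5 collagen UMIs only *Jun* and *Calr* were called, and the term of *Col3a1* changed sign. The part of mixed barcodes in these terms was not tested beyond this.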

How the results depend on the processing

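The pooled ratio of observed to expected double-high cells stayed between 0.651 and 0.717 under 6 alternatives and between 0.686 and 0.714 with a tumour left out. The share by genotype kept p above 0.05 throughout. Its difference was 0.674 to 1.89 percentage points with a tumour left out and −0.366 with cuts set within each tumour (p = 0.0857, exact permutation test). The genotype difference of the ratio, −0.0188, was 0.169 at cuts of 10%, 0.0266 without the 10% highest UMI barcodes and −0.0467 to 0.0210 with a tumour left out. Replicate numbers did not pair the tumours (correlations of −0.050 to 0.012). A replicate block left the share difference at 1.29 points (p = 0.5, exact sign-flip test, smallest possible 0.125) and gave 5 called genes for genotype within double-high cells.

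At cuts of 10% the calls fell to 2771 against other G2/M cells, 1912 against other hypoxic cells and 345 for the interaction. With a tumour left out they were 4222 to 4664, 3119 to 3532 and 405 to 658, and the interaction was at 405 without WT/WT replicate 2, 417 without Δ/Δ replicate 1 and 419 without Δ/Δ replicate 3. Positive interaction calls were 42.9% of all at cuts of 10%, 78.2% after thinning and 72.6% without the expression filter. Genotype calls within double-high cells were 15 at cuts of 30%, 1 with DESeq2, 54 without the expression filter, 3 with sex by *Xist* as a term and 1 to 18 with a tumour left out (1 without Δ/Δ replicate 4, 18 without Δ/Δ replicate 2). For the genotype term of the class difference they were 4 at cuts of 30%, 0 with DESeq2, 14 without the filter, 2 without barcodes with collagen UMIs and 1 to 11 with a tumour left out. Of 2413 values of single genes 2232 kept their direction and side of the threshold, 179 kept only the direction, and 2 reversed, *Ndufa5* against other hypoxic cells at cuts of 10% (−0.041) and *Col3a1* in the genotype term without barcodes with collagen UMIs (0.467). The causes were not tested. The alternatives on collagen and on sex by *Xist* were chosen after seeing the data.

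The double-high sums rested on 22 to 142 cells a tumour, with 35 and 22 cells in WT/WT replicates 3 and 4.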
